A study of Mus musculus with 10 samples.

Results

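Transcripts of 8 glycolytic enzymes were followed through a block of transcription in 32Dcl3 mouse myeloblasts, a nonleukemic myeloid line that needs interleukin-3 (IL-3) to grow and survive. The genes were taken by name, as the 10 genes Gapdh, Aldoa, Pgk1, Eno1, Pkm, Ldha, Tpi1, Pgam1, Gpi1 and Hk2. Of these, 8 are named by at least 1 probe set that names no other gene, out of 12394 genes so named on the array, which gave 17 of its 22690 probe sets; Eno1 and Gpi1 are named by none in the annotation used here and were not analysed. A further 2 probe sets name Gapdh together with its pseudogenes and were not used. After removal of IL-3 by washing, the cells received actinomycin D (10 µg/ml), which stops the synthesis of new RNA. IL-3 was then given at a high dose (1 ng/ml) or a low dose (0.01 ng/ml). RNA was taken at 0 h and at 2 h and 4 h in each dose, in 2 independent experiments. There were thus 5 groups with 2 arrays each, 10 arrays in all, and the 5 arrays of an experiment came from 1 divided culture. All groups are this 1 line, and both doses share the 0 h arrays of their experiment. The labels differ on whether the 0 h sample was taken before or after actinomycin D was added.

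Glycolysis turns glucose into pyruvate in the cytosol. Hexokinase traps glucose in the cell as glucose 6-phosphate, and phosphofructokinase commits it to the pathway. Aldolase splits the sugar into triose phosphates, which triosephosphate isomerase interconverts. The enzymes from glyceraldehyde 3-phosphate dehydrogenase to pyruvate kinase then yield ATP, and lactate dehydrogenase regenerates NAD+ from the pyruvate formed. Haematopoietic cells that depend on a cytokine take up and use glucose under its control, and several mRNAs of the lower pathway, Gapdh above all, serve widely as loading controls.

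On these arrays the 17 probe sets were a single labile transcript, Hk2, and 16 that stayed near or above their 0 h intensity for 4 h. All 17 had a mean intensity of at least 50 over the 10 arrays, the limit for testing, together with 11856 of the 22690 probe sets in all. No member passed the test between high and low IL-3 across all probe sets. The intensities are on the linear scale of the deposited table, and the number of arrays limits their precision. At 0 h the 3 Gapdh probe sets held places 48 to 110 of all probe sets in mean intensity. Hk2, at 1064 ± 380 (SD, n = 2), held place 3069, with 13.52% of probe sets brighter. Affinity differs between probe sets, so these places are not amounts of RNA.

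Median intensity per array ran from 48.8 to 70.6, and 11280 to 12155 probe sets per array reached 50. Of 8 myeloblast markers 5 had a mean of at least 50, among them the granule proteases Ctsg (3090 to 4455) and Prtn3, the peroxidase Mpo and the transcription factor Myb, whereas Elane, Kit and Cd34 did not. The myeloblast sum ran from 8403 to 14082 at 0 h, 6655 to 13758 and 5612 to 11670 at 2 h and 4 h with the high dose, and 6677 to 12927 and 5975 to 11525 at 2 h and 4 h with the low dose. At 0 h, Mpo read 3408.7 and 508.8 and Prtn3 3178.4 and 1452.7 in experiments 1 and 2. Myb went from 2747.7 and 2132.5 at 0 h to 783.8 and 589.3 at 4 h with the low dose. Cebpa, also among the 5, went from 248.3 and 820.8 to 10.5 and 37.3. Of 4 macrophage markers 3 reached a mean of 50, Adgre1 (2581 to 3310), Cd68 (119.5 to 436.4) and Csf1r (43.8 to 93.6), whereas Cd14 did not. Of 5 mast cell and basophil markers Cpa3 (882 to 1752), Mcpt8 and Fcer1a did, whereas Tpsb2 and Ms4a2 did not. Of 5 mature neutrophil markers 4 did, Ltf (43.0 to 327.1), Ngp, Cxcr2 and Mmp9, whereas Camp did not. None of the 3 lymphoid markers with a probe set reached a mean of 50. Of 3 erythroid markers Gata1 did (42.4 to 81.0), whereas Hba-a1 and Klf1 stayed below 20. In bulk samples fewer cells of a type and less RNA per cell cannot be told apart. The part of these cell states in the values below was not tested.

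Hk2 encodes hexokinase 2, the inducible isozyme at the entry of the pathway. At 0 h it read 1332.7 in experiment 1 and 795.3 in experiment 2. With the high dose it stood at 668.2 and 374.5 at 2 h and at 224.1 and 158.1 at 4 h. With the low dose it stood at 426.3 and 281.0 at 2 h and at 189.5 and 148.5 at 4 h. Every treated array lay below both 0 h arrays. Hk2 thus kept 48.6% ± 2.16 (SD, n = 2) of its 0 h intensity at 2 h with the high dose and 33.7% ± 2.36 with the low dose. At 4 h it kept 18.3% ± 2.17 with the high dose and 16.4% ± 3.15 with the low dose.

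The fall of Hk2 was larger than the spread between experiments. On the log2(intensity + 16) scale it fell by 2.36 from 0 h to 4 h with the high dose (SE 0.147, adjusted p = 3.7e-09) and by 2.51 with the low dose (SE 0.147, adjusted p = 2e-09, limma with Benjamini-Hochberg adjustment over 11856 probe sets). By 2 h it had fallen by 1.02 with the high dose and by 1.53 with the low dose (adjusted p = 7.9e-05 and 1.2e-06). From 2 h to 4 h it fell by a further 1.34 with the high dose (adjusted p = 2.4e-05) and 0.98 with the low dose (adjusted p = 0.00021). Without the experiment in the model Hk2 was called at 4 h in both doses, but neither by 2 h nor from 2 h to 4 h (adjusted p = 0.22 and 0.40 for the latter with the high and low dose). The half-life from both time points, ln 2 over the slope of the log ratio, was 1.68 ± 0.0789 h with the high dose (SD, n = 2) and 1.48 ± 0.142 h with the low dose. For comparison, the median over the probe sets with a half-life in both experiments was 6.4 h with the high dose (6020 probe sets) and 5.53 h with the low dose (5948 probe sets). Of the 11856 tested, 549 (4.63%) with the high dose and 409 (3.45%) with the low dose had a half-life no longer than that of Hk2.

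**Figure D1:**
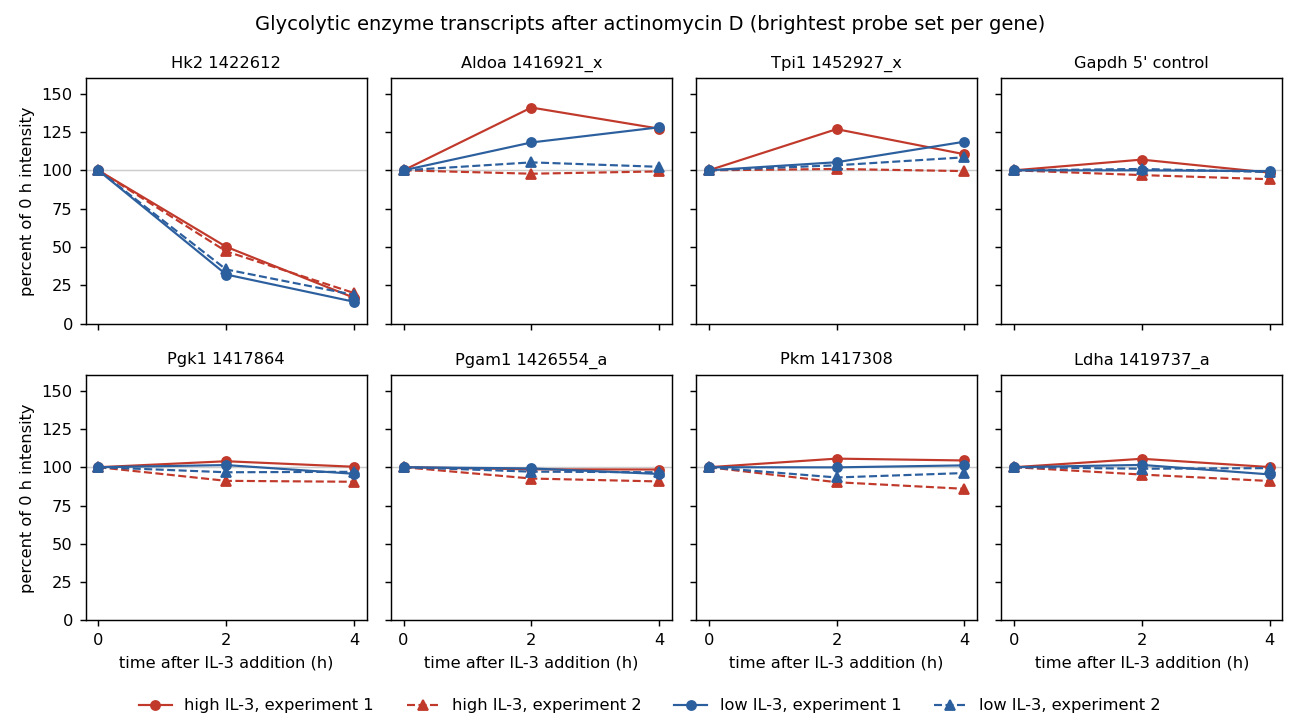
Percent of the 0 h intensity (y axis, same experiment) against time after IL-3 addition in hours (x axis) for the brightest probe set of each gene, with red lines for high and blue lines for low IL-3, circles for experiment 1 and triangles for experiment 2. Hk2 drops to 14.2% to 19.9% at 4 h, while the lines of the other genes stay between 85.9% and 141%.

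Hk2 was brighter with the high than with the low dose in 4 of 4 matched comparisons within an experiment and a time point. In experiment 1 the ratio of high over low was 1.567 at 2 h and 1.182 at 4 h, and in experiment 2 it was 1.333 and 1.065. At 2 h the doses overlapped across experiments, since experiment 2 with the high dose (374.5) lay below experiment 1 with the low dose (426.3). The mean difference over both times was 0.33 on the log2 scale (SE 0.104, 95% interval 0.11 to 0.55) and did not pass in limma (adjusted p = 0.23). At 2 h alone the difference was 0.51 (SE 0.147, adjusted p = 0.39), and at 4 h alone 0.15 (SE 0.147, adjusted p = 0.92), the latter at -0.01 without the low-dose array of experiment 1 at 4 h. The difference between the times was -0.36 (SE 0.208, adjusted p = 0.92). Across the 20 alternatives of processing the adjusted p of the mean difference ran from 0.086 to 1, so that at no setting did it pass. The signed area between the decay curves, the measure used by the study (ratios to 0 h, those of the high dose capped at 1, averaged over experiments), was 0.318 for Hk2, which placed it at rank 290 of 22690 after division by the variability at its intensity. This rank is no test, and it moved to 1016 with no limit on the ratios, to 778 in experiment 2 alone and to 165 after scaling to the 75th percentile.

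The test for IL-3 called none of the 17 member probe sets in either direction, over both times, at 2 h, at 4 h, or for the difference between the times. Over all 11856 probe sets tested it called 82 higher with the high dose (0.692%) and 2 lower (0.0169%) over both times, 7 higher (0.0590%) and 0 lower (0%) at 2 h, 46 higher (0.388%) and 2 lower (0.0169%) at 4 h, and 0 (0%) for the difference between times. With no call for that difference at adjusted p below 0.05 in limma, 684 probe sets had an unadjusted p below 0.05. A list of 17 would hold less than 1 call at these rates, so that the count of 0 by itself does not separate the members from the rest. Beside the counts stand the differences themselves. The 16 probe sets other than Hk2 ran from -0.04 to 0.08 on the log2 scale over both times, with 6 above 0 and no adjusted p below 0.85, against -0.19 to 0.26 for the 5th to 95th percentile of all probe sets tested. Their 95% intervals lay between -0.13 and 0.24. The median over the 17 members was -0.01, the same as over all probe sets tested at this precision.

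**Figure D2:**
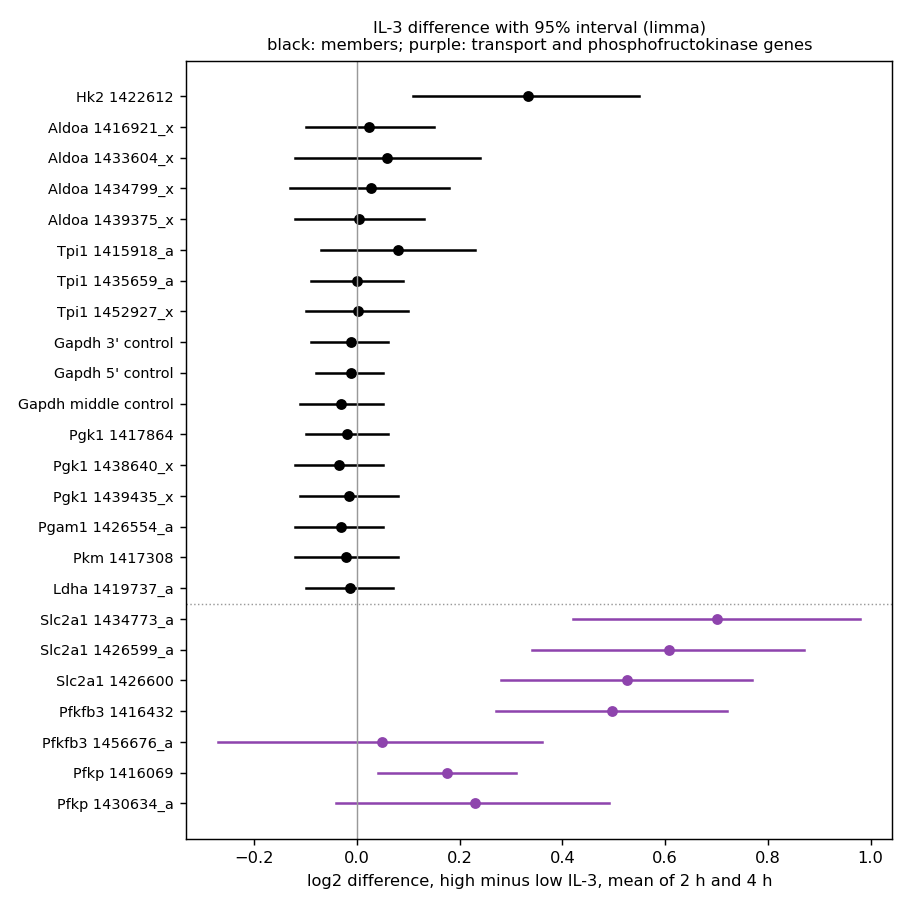
Log2 difference between high and low IL-3, averaged over 2 h and 4 h (x axis), with its 95% interval from limma for the 17 member probe sets (black) and 7 probe sets of glucose transport and phosphofructokinase genes (purple). The 16 members other than Hk2 sit between -0.04 and 0.08 with intervals across 0, Hk2 sits at 0.33, and the 3 Slc2a1 probe sets sit between 0.53 and 0.70.

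Aldoa (aldolase A) and Tpi1 (triosephosphate isomerase), the neighbouring steps that form and interconvert the triose phosphates, were called lower in no comparison. The Aldoa probe set 1433604_x_at read, in experiments 1 and 2, 2240.8 and 5037.5 at 0 h, 3968.4 and 5351.5 at 2 h and 3337.0 and 5338.9 at 4 h with the high dose, and 2799.9 and 5749.1 at 2 h and 3476.2 and 5729.1 at 4 h with the low dose. Tpi1 probe set 1435659_a_at read 3209.9 and 4400.5 at 0 h, 4032.5 and 4903.5 at 2 h and 3661.1 and 4823.8 at 4 h with the high dose, and 3460.4 and 4830.5 at 2 h and 4071.4 and 5136.2 at 4 h with the low dose. In both probe sets every later array was above the 0 h array of its own experiment, yet every array of experiment 1 stayed below all those of experiment 2. In experiment 1 all 28 values of the 7 Aldoa and Tpi1 probe sets were above their 0 h array, at 105.3% to 177.1%. In experiment 2 there were 22 of 28 above, at 96.8% to 116.7%.

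At 4 h with the low dose, 6 member probe sets were called higher than at 0 h, 3 of the 4 of Aldoa and all 3 of Tpi1, and 1 lower, Hk2. Over all probe sets tested, 15.3% were called higher and 38.3% lower. The largest of these was Aldoa 1433604_x_at at 0.41 (SE 0.119, adjusted p = 0.009), and the Tpi1 probe set 1435659_a_at rose by 0.28 (SE 0.061, adjusted p = 0.0011). With the high dose, 3 were called higher at 4 h (background 9.67%), Aldoa 1433604_x_at and 1439375_x_at and Tpi1 1435659_a_at, and 2 lower (background 35.4%), Hk2 and Pgk1 1438640_x_at. At 2 h with the high dose, 4 were called higher (background 3.48%), 2 each of Aldoa and Tpi1, and 1 lower (background 22.6%), Hk2. With the low dose at 2 h none was called higher (background 1.58%) and only Hk2 lower (background 23.0%). Between 2 h and 4 h, Hk2 was the only member called, with the low dose (background 18.9% lower and 2.21% higher) and with the high dose (18.7% lower and 1.91% higher). With the high-dose array of experiment 2 at 2 h left out, 1 array remained in that group. From 2 h to 4 h with the high dose, the median change of the 17 members then moved from -0.07 to -0.15. That of all probe sets tested moved from -0.05 to -0.09. The calls with the low and high dose rest on the same 0 h arrays.

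A fit without 1 array leaves 1 array in its group, so the counts below show only how far calls depend on single arrays. Most calls of a rise in Aldoa and Tpi1 depended on several arrays, the 0 h array of experiment 1 among them. Experiment 2 exceeded experiment 1 at 0 h by 1.35 to 2.25 times for these 7 probe sets, against a median ratio of 0.86 over all probe sets tested, 11.9% of which exceeded 1.35. Without that array, 1 member probe set was called higher at 4 h with the low dose in place of 6, and 0 in place of 3 with the high dose. Aldoa 1433604_x_at then changed by 0.18 with the low dose (adjusted p = 0.22), while Tpi1 1435659_a_at stayed past the threshold with the low dose. Without either of the low-dose arrays at 4 h the count was 1 in each dose. The 3 calls with the high dose at 4 h also became 0 without its array of experiment 1 at 4 h, 5 without the 0 h array of experiment 2, and 6 without either high-dose array at 2 h. The 4 calls with the high dose at 2 h became 0 without the 0 h or the 2 h array of experiment 1, and 7 without either of those of experiment 2. With the low dose at 2 h the count of 0 became 4 without the 0 h array of experiment 2, 2 without either high-dose array at 2 h, and 1 without the low-dose array of experiment 1 at 2 h. Marker genes differed between the experiments too, with Mpo at 3408.7 and 508.8 and Mcpt8, a basophil protease, at 54.5 and 188.4 at 0 h in experiments 1 and 2, and their part in the difference was not tested.

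**Figure D3:**
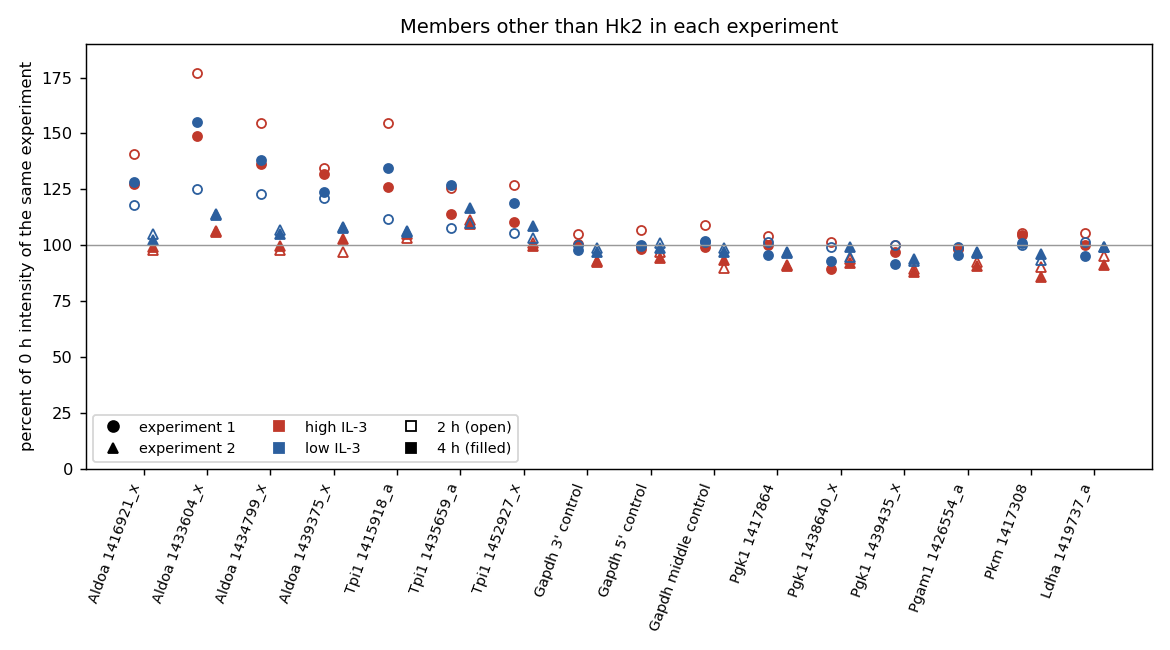
Percent of the 0 h intensity of the same experiment (y axis) for the 16 member probe sets other than Hk2 (x axis), with circles for experiment 1, triangles for experiment 2, red for high and blue for low IL-3, open marks for 2 h and filled marks for 4 h. Aldoa and Tpi1 in experiment 1 reach 105.3% to 177.1%, while the other genes lie between 85.9% and 108.9%.

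In Tpi1 the order of the doses differed between the times, without passing the test. Its 3 probe sets were at 0.12 to 0.21 in high minus low IL-3 at 2 h and at -0.12 to -0.06 at 4 h on the log2 scale. The change between the times was -0.24 for 1435659_a_at (SE 0.087), but no Tpi1 probe set passed in limma (lowest adjusted p = 0.86). In experiment 1 the ratio of high over low at 2 h was 1.165 to 1.383 for the 3 probe sets, and in experiment 2 it was 0.972 to 1.015. Without the high-dose array of experiment 2 at 2 h, 1 member probe set was called higher at 2 h and 2 were called for the change between times. All of these were of Tpi1. The order itself was not particular to Tpi1. Aldoa 1433604_x_at was at 0.20 at 2 h and -0.08 at 4 h, 1434799_x_at at 0.10 and -0.05, and 1416921_x_at at 0.07 and -0.03. Aldoa 1439375_x_at was at -0.005 and 0.011. The Aldoa ratio of high over low at 2 h was 1.111 to 1.417 in experiment 1 and 0.895 to 0.931 in experiment 2.

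Of the enzymes below, Gapdh forms 1,3-bisphosphoglycerate, Pgk1 and Pkm make ATP, Pgam1 shifts the phosphate of 3-phosphoglycerate, and Ldha makes lactate. Their 9 probe sets stayed at 85.9% to 108.9% of their 0 h intensity. The 5′ control probe set of Gapdh read 8311.6 and 9350.7 at 0 h, 8897.1 and 9063.3 at 2 h and 8186.0 and 8808.2 at 4 h with the high dose, and 8311.2 and 9432.3 at 2 h and 8268.1 and 9243.8 at 4 h with the low dose. Its lowest and highest arrays differed 1.152-fold. It stood at 78.5% to 86.9% of the highest intensity on each array, that is, near the top of the scale. The ratio of the 3′ to the 5′ control probe set of Gapdh was 0.844 to 0.905 over the 10 arrays.

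Ldha read 6234.8 and 6962.7 at 0 h, 6243.6 and 6337.8 at 4 h with the high dose, and 5941.5 and 6924.2 at 4 h with the low dose. Pgam1, with the narrowest range of all members at 1.103-fold, read 4425.3 and 4599.2 at 0 h, 4358.2 and 4170.0 at 4 h with the high dose, and 4232.0 and 4447.8 at 4 h with the low dose. Pkm read 3851.0 and 5333.9 at 0 h, 4020.3 and 4582.9 at 4 h with the high dose, and 3898.8 and 5129.4 at 4 h with the low dose. In Ldha and Pkm the groups overlapped, whereas in Pgam1 both arrays at 4 h with the high dose lay below both 0 h arrays, without passing the test (-0.08 on the log2 scale, SE 0.057, adjusted p = 0.26). The brightest Pgk1 probe set, 1417864_at, read 6904.9 and 7956.7 at 0 h, 6928.4 and 7204.3 at 4 h with the high dose, and 6605.6 and 7715.1 at 4 h with the low dose.

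Over these 9 probe sets the values after 0 h were 89.2% to 108.9% of 0 h in experiment 1, with 19 of 36 above 100%, and 85.9% to 100.9% in experiment 2, with 1 of 36 above. The ratio of high over low IL-3 ran from 0.893 to 1.07. Pgk1 probe set 1438640_x_at was the only 1 of the 9 called in any comparison, lower by 0.14 on the log2 scale at 4 h with the high dose (SE 0.054, adjusted p = 0.042). The other 2 Pgk1 probe sets stood at -0.07 and -0.11 and did not pass (adjusted p = 0.30 and 0.16). The Pgk1 call was lost without any 1 of the 0 h arrays, the high-dose arrays at 4 h or the low-dose arrays at 2 h (adjusted p = 0.055 to 0.26), and it turned to a rise when arrays were scaled to a common 75th percentile or median, as given with the processing alternatives.

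These percentages are relative to the joint normalization of the 10 arrays by the authors. The median change of all probe sets tested at 4 h was -0.12 with the low and -0.10 with the high dose, and that of the 17 members -0.01 and -0.05. Scaling every array to the same 75th percentile moved the median of all to 0.30 and 0.31, and that of the members to 0.43 and 0.38. The members thus lay above the median of all probe sets by 0.11 and 0.04 as deposited, and by 0.13 and 0.07 after that scaling. This order was not stable. With quantile normalization the median of the members minus that of all was -0.12 and -0.15, and with the high dose it was also negative with no filter (-0.04) and without the 0 h array of experiment 1 (-0.03). Hk2 was lower as deposited and after scaling to the 75th percentile, and the other 16 probe sets were called higher at 4 h in both doses after the latter. Over all 11856 probe sets tested, that scaling called 5836 higher with the low dose and 5922 with the high dose.

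**Figure D4:**
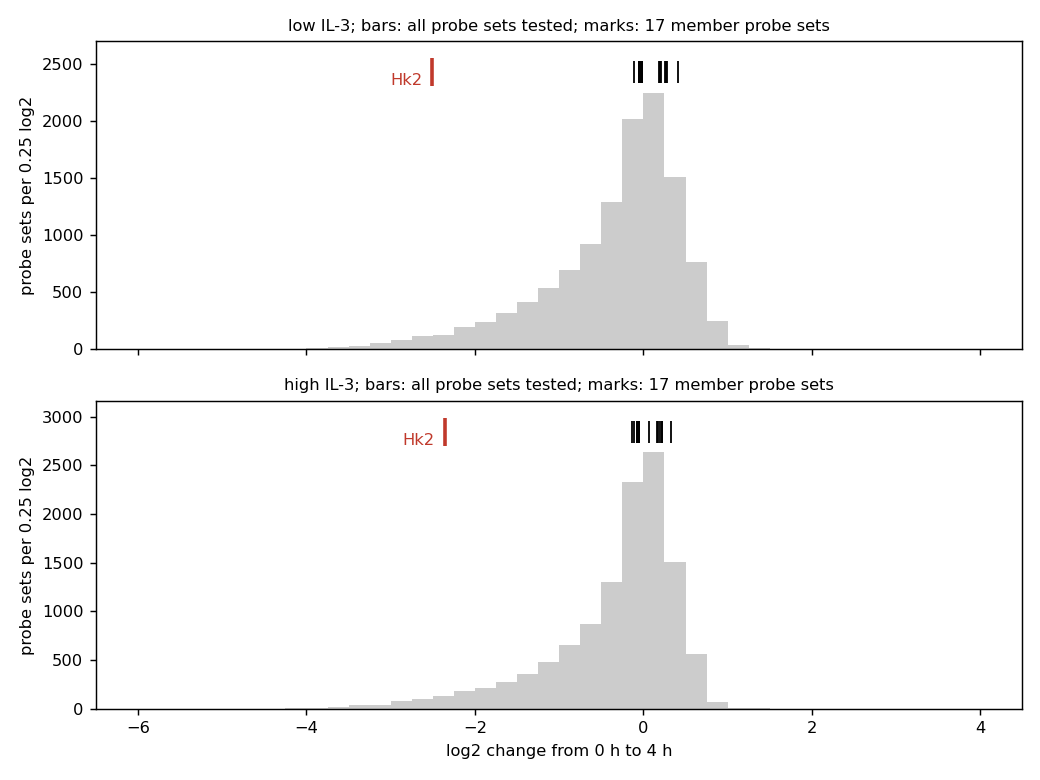
Number of probe sets (y axis, bins of 0.25) by log2 change from 0 h to 4 h (x axis) with the low dose (upper panel) and the high dose (lower panel), for the 11856 probe sets tested, with marks for the 17 member probe sets. Hk2 lies in the left tail at -2.51 and -2.36, and the other 16 members lie between -0.14 and 0.41.

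The profiles of the genes over the 10 arrays, each centred within its experiment and taken from the brightest probe set, were alike within pairs of genes. Aldoa and Tpi1 had a Pearson r of 0.889, Pgk1 and Ldha of 0.935, and Pgk1 and Pgam1 of 0.909, whereas Hk2 had r of -0.45 with Aldoa and 0.57 with Pgam1. The arrays share their normalization, and these values are descriptions over 10 arrays with no test. Among 6792 genes the 3 most like Hk2 were Naa30 (r = 0.995), Depdc7 (0.994) and Ube2t (0.994), which changed by -2.15, -1.69 and -2.57 from 0 h to 4 h with the low dose. Those most like Gapdh were Med24 (0.945), Elavl1 (0.911) and Cdk11b (0.902). The mean profile of the members was closest to Senp6 (0.98), Cdc27 (0.979), Stk11 (0.975), Dnm1l (0.973) and Ldb1 (0.973), and itself had r = 0.941 with Hk2, the member with the largest swing.

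The rest of the pathway was read from lists of related genes, each through its brightest probe set. Among the other isozymes and steps, 7 genes were tested and none was called for IL-3. Phosphofructokinase, the committed step, was measured in 3 isozymes. Pfkp, the platelet isozyme, fell by 0.88 at 4 h with the low dose and by 0.69 with the high dose (adjusted p = 5.1e-07 and 8e-06), with an IL-3 difference of 0.18 (SE 0.063, adjusted p = 0.35). In experiments 1 and 2, its dimmer probe set 1430634_a_at kept 79.4% and 55.2% of 0 h at 4 h with the low dose. It kept 61.0% and 59.4% with the high dose, and was brighter with the high dose in 3 of 4 pairs. Pfkl, the liver isozyme, changed by 0.08 and 0.01 and did not pass on its brightest probe set, while 1450269_a_at was called higher with the low dose (0.31, adjusted p = 0.03). Pfkm, the muscle isozyme, was at 0.28 with the low dose (adjusted p = 0.093) and was called higher with the high dose at 0.37 (SE 0.134, adjusted p = 0.034). The Pfkm call was lost without any 1 of the 0 h arrays, the high-dose arrays at 4 h or the low-dose arrays at 2 h (adjusted p = 0.063 to 0.18), and without the experiment in the model (0.30). Hk1, the constitutive hexokinase, fell by 0.36 and 0.31 (adjusted p = 0.0013 and 0.0047), against 2.51 and 2.36 for Hk2. The dimmer Hk1 probe set 1420901_a_at differed between experiments 1 and 2. It stood at 110.0% and 83.7% of 0 h at 4 h with the low dose, and at 97.8% and 77.9% with the high dose. Eno3, the muscle enolase, rose by 0.78 with the low dose and 0.48 with the high dose. Its mean intensity at 0 h was 56.0, close to the limit for testing. Eno3 led the lower side for IL-3 at -0.14 (adjusted p = 0.84), and Bpgm was at 0.21 (adjusted p = 0.70).

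The 2 genes of these lists called for IL-3 were Slc2a1 and Pfkfb3. Slc2a1 encodes the glucose transporter GLUT1. Its brightest probe set, 1434773_a_at, read, in experiments 1 and 2, 1445.9 and 1731.3 at 0 h, 824.1 and 862.4 at 2 h and 304.0 and 442.6 at 4 h with the high dose, and 605.8 and 477.9 at 2 h and 161.2 and 268.7 at 4 h with the low dose. At each time both high-dose arrays were above both low-dose arrays. The difference was 0.70 on the log2 scale (SE 0.131, adjusted p = 0.02). Of the other 2 Slc2a1 probe sets, 1426599_a_at was called at 0.61 (SE 0.124, adjusted p = 0.031), and 1426600_at, at 0.53 (SE 0.115, adjusted p = 0.050), lay just above the threshold and was not called. All 3 were higher with the high dose in 4 of 4 pairs. In both doses Slc2a1 fell steeply, to 23.3% ± 3.21 (SD, n = 2) of 0 h at 4 h with the high dose and 13.3% ± 3.09 with the low dose.

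Pfkfb3, whose product makes the activator of phosphofructokinase, fructose 2,6-bisphosphate, was called on 1 of its 2 probe sets. Probe set 1416432_at read 188.0 and 189.4 at 0 h, 212.6 and 194.9 at 2 h and 181.9 and 176.5 at 4 h with the high dose, and 146.9 and 144.4 at 2 h and 112.5 and 122.4 at 4 h with the low dose. Both high-dose arrays lay above both low-dose arrays at each time. The difference was 0.50 (SE 0.106, adjusted p = 0.043), whereas the dimmer probe set 1456676_a_at was at 0.05 (adjusted p = 0.97). Whether the IL-3 difference of Slc2a1 or Pfkfb3 was larger than that of Hk2 was not tested.

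**Figure D5:**
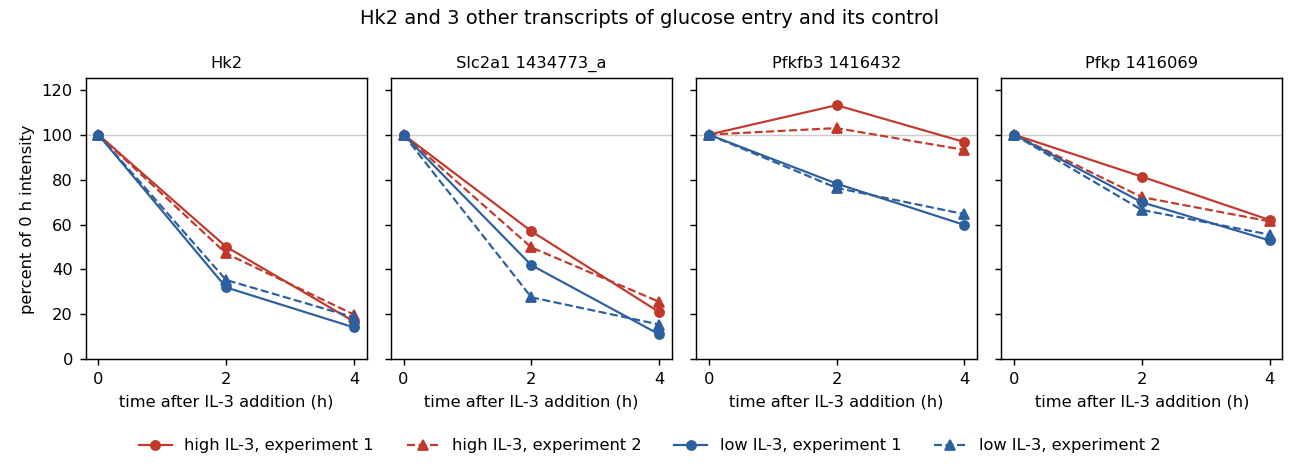
Percent of the 0 h intensity (y axis, same experiment) against time after IL-3 addition in hours (x axis) for Hk2, Slc2a1, Pfkfb3 and Pfkp, with red for high and blue for low IL-3, circles for experiment 1 and triangles for experiment 2. Pfkfb3 stays at 93.2% to 113.1% with the high dose and falls to 59.8% and 64.6% at 4 h with the low dose, while Hk2 and Slc2a1 fall in both doses.

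The calls of Slc2a1 and Pfkfb3 were lost in several alternatives. Pfkfb3 no longer passed in 11 of 19, and the Slc2a1 probe sets 1434773_a_at and 1426599_a_at in 7 and 8 of 20. Slc2a1 1434773_a_at no longer passed without the high-dose array of experiment 1 at 2 h (adjusted p = 0.068) or of experiment 2 at 4 h (0.11), or without the low-dose array of experiment 2 at 2 h (0.13) or of experiment 1 at 4 h (0.26). Slc2a1 1426599_a_at no longer passed without those of high IL-3 in experiment 1 at 2 h (0.11) and in both experiments at 4 h (0.10 and 0.12), or those of low IL-3 in experiment 2 at 2 h (0.29) and experiment 1 at 4 h (0.26). For Pfkfb3, leaving out any array of high or low IL-3 except the high-dose array of experiment 2 at 2 h gave adjusted p of 0.077 to 0.29. Without the experiment in the model all 3 called probe sets had an adjusted p of 1. Their differences stayed between 0.39 and 0.88 over the alternatives.

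Of the other regulators, Myc and Txnip were lower at 4 h in both doses. Myc, a transcription factor that drives many glycolytic genes, read 1462.6 and 1064.3 at 0 h and 30.2 to 76.5 on the 8 later arrays, around the median intensity of an array (adjusted p = 5.7e-10 and 3.3e-10 at 4 h with the low and high dose). At such intensities neither the size of its fall nor a difference between the doses can be read. Txnip, which restrains glucose uptake, fell by 2.22 and 2.17, with a difference of 0.20 (adjusted p = 0.59). The transport list also held Slc2a3 (GLUT3), which fell by 0.56 and 0.39 (adjusted p = 3.7e-06 and 0.00021), and the lactate carrier Slc16a1, with an IL-3 difference of 0.19 (adjusted p = 0.63).

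In the neighbouring pathways no gene was called for IL-3. Of 7 tested around pyruvate dehydrogenase, Dlat and Dld led the higher side at 0.18 and 0.11, and Pdha1 and Pdk1 the lower side at -0.09 and -0.08. Of 6 of the pentose phosphate pathway, Pgd and Taldo1 were at 0.53 and 0.03 and Rpe and Tkt at -0.15 and -0.04. The Pgd value rested on 1 array, since 1438627_x_at read 4141.0 at 4 h with the high dose in experiment 2 and 756.3 to 1338.1 on the other 9 arrays. Without that array the Pgd difference was -0.04, and the other 3 Pgd probe sets were at -0.05 to 0.04. Of 11 of gluconeogenesis and glycogen, Pgm1 and Pgm2 were at 0.08 and 0.07 and Pcx and Fbp1 at -0.23 and -0.16. None of the differences of these 3 lists, with all arrays, had an adjusted p below 0.54. Over the 40 genes of the 6 pathway lists, 2 were called higher with the high dose and 0 lower. Over all probe sets tested the shares were 0.692% and 0.0169%. At these rates a count of 0 in a list this short does not separate it from the rest. The median of the 40 genes was 0.02 against -0.01 over all probe sets. At 4 h with the low dose 8 of the 40 (20%) were called higher and 13 (32.5%) lower, beside 15.3% and 38.3% of all probe sets tested. With the high dose 8 (20%) were higher and 11 (27.5%) lower, beside 9.67% and 35.4%, and the 8 include the Pgd probe set above, which was not called without its highest array.

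Genes in common use as controls, a role that Gapdh shares, did not all hold their level. Of 9 tested none was called for IL-3, with Tbp and Gusb highest at 0.31 and 0.02 (adjusted p = 0.41 and 0.97) and B2m and Rplp0 lowest at -0.08 and -0.04 (adjusted p = 0.65 and 0.85). At 4 h with the low dose, 3 of the 9 were called higher and 1 lower, beside 15.3% and 38.3% of all probe sets tested. With the high dose 1 was called higher and 1 lower, beside 9.67% and 35.4%. The lower one in each dose was Tbp, a general transcription factor. It changed by -2.41 with the low dose and by -2.27 with the high dose (adjusted p = 9.5e-09 and 1.9e-08). At 4 h, 41.6 to 51.7 was left, near the limit of 50, so that the size of the fall is not exact. The brightest Gapdh probe set changed by -0.01 and -0.05 over the same times (SE 0.044, 95% intervals -0.10 to 0.08 and -0.15 to 0.04).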

How the data were processed

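RNA of 32Dcl3 cells was measured on 10 Affymetrix mouse arrays. The authors deposited intensity on a linear scale for 22690 probe sets. They had normalized the 10 arrays jointly with dChip under its default settings (version not given in the sources used here). Names came from the platform annotation, with 20393 naming 1 gene, 691 several and 1606 none. Probe sets with a mean of at least 50, 11856 in number, were tested as log2(intensity + 16) in limma 3.58.1 (R 4.3.3). A single model held the 5 groups and a term for the experiment (the replicate block), with a variance trend in eBayes, leaving 4 residual degrees of freedom per probe set. The Benjamini-Hochberg threshold was 0.05 over all probe sets tested. The block follows from the divided cultures, and deviations from the group means correlated at 0.762 to 0.887 between arrays that share an experiment, over 10 pairs of groups. The experiment term removes the difference in level between the 2 cultures. With 2 experiments, p-values measure how far group differences vary between these cultures, with variances moderated over probe sets in eBayes. The script was tested on simulated data.

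The members and lists were chosen with earlier results of these data known. The alternatives for single times, for the changes to 2 h and from 2 h to 4 h, and for Pgd and Pfkm were chosen after seeing the data. Named were all members and, of each list, up to 2 genes with the smallest p for IL-3 in each direction and any gene that passed. Genes like a member were ranked by Pearson r. Other pathway genes were named for their role after their values were seen: Pfkl, Pfkm, Hk1, Slc2a3. The area between the curves followed the study's methods. The alternatives were other pseudocounts, filters, scalings, fits without the block or the trend, and each array left out.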

Additional observations from a re-analysis of the deposited data

How the results depend on the processing

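No member was called for IL-3 over both times or at 4 h in any of the 20 alternatives. Without the experiment as a replicate block, all probe sets gave 0 IL-3 calls over both times (162 at an unadjusted p below 0.05) against 84 with it. At 4 h, member calls with the block were 6 higher with the low dose and 3 higher and 2 lower with the high dose. Without the block these were 0 higher with the low dose, and 0 higher and 1 lower with the high dose, and Hk2 was still called at 4 h. Over all probe sets tested, 148 were then higher with the low dose, and 38 higher and 1804 lower with the high dose. Without the block 0 were higher and 0 lower in either dose at 2 h and from 2 h to 4 h, so that Hk2 was not called there. Over all probe sets tested, 338 and 192 were then lower at 2 h with the low and high dose. From 2 h to 4 h, 3 and 4 were lower. From 2 h to 4 h with the low dose 1 was higher at the 75th percentile or with quantile normalization and 2 at the median, in place of 0. Over all probe sets tested, those higher were 1876 at the 75th percentile, 1349 with quantile normalization and 2056 at the median. With each array left out, the median change of the members over that interval ran from -0.04 to 0.03 with the low dose. With the high dose it ran from -0.15 to 0.02. The median of all probe sets tested ran from -0.13 to -0.0003 and from -0.09 to -0.02. For low IL-3 at 4 h, members higher were 2 with no filter, 2 (and 2 lower) scaled to the ribosomal protein probe sets, 16 scaled to the 75th percentile or the median, and 1 without the variance trend. Over all 22690 probe sets with no filter, 1627 were higher. Of 11856 tested, 1794 were higher and 4823 lower with the ribosomal scaling. Those higher were 5836 at the 75th percentile, 5907 at the median and 1672 without the trend. For high IL-3 at 4 h members higher were 0 with no filter, 16 when scaled to the 75th percentile or the median, 7 with quantile normalization and 0 without the trend, with 1 lower in each of these. Over all 22690 probe sets with no filter, 935 were higher and 4402 lower. Of 11856 tested, 5922 were higher at the 75th percentile, 5964 at the median, 4695 with quantile normalization and 1091 without the trend. Those lower in these settings ran from 2611 to 3997. For low IL-3 at 2 h members higher were 15 with either scaling and 2 with quantile normalization. Over all probe sets tested, those higher were 4263 at the 75th percentile, 4232 at the median and 2674 with quantile normalization. For high IL-3 at 2 h members higher were 2 with no filter, 12 at the 75th percentile, 13 at the median, 7 with quantile normalization and 0 without the trend. Over all probe sets, those higher were 224 of 22690 with no filter. Of 11856 tested, they were 3583, 3701, 2472 and 337 in the other settings, in that order. A fit without 1 array leaves 1 array in its group, so the counts that follow show only how far calls depend on single arrays. With each array left out in turn, members higher ran from 1 to 7 and from 0 to 6 at 4 h with the low and high dose, with 1 to 2 lower with the high dose, from 0 to 4 and from 0 to 7 at 2 h, from 0 to 1 for IL-3 at 2 h, and 0 to 2 lower for the difference between times. Pgk1 1438640_x_at at 4 h with the high dose turned to 0.29 with both scalings, and the Hk2 difference at 4 h turned to -0.01 without the low-dose array of experiment 1 (range -0.01 to 0.32 over the arrays left out). With both scalings the Hk2 half-life was 2.08 h with the high and 1.78 h with the low dose. The median percent of 0 h at 4 h over the other 16 probe sets was 96.6% with the high and 99.2% with the low dose, and became 130.8% and 135.9% at the 75th percentile and 131.0% and 136.5% at the median. Their median area was -0.112 as reported, -0.806 at the 75th percentile and -0.003 with no limit on ratios. The scalings add a shift to all probe sets by construction, and otherwise the cause was not tested. The area of Hk2 was 0.318 as reported, 0.377 at the 75th percentile, 0.389 in experiment 1 alone and 0.247 in experiment 2 alone. No Hk2 ratio exceeded 1, so the limit on ratios could not change its area. Its rank of 290 moved to between 165 and 1016. Gapdh lay near the top of the scale.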
